A study of Mus musculus with 21 samples.

Results

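Left ventricles of mice treated late with semaglutide (Sema) during pressure overload were set against sham-operated ventricles of the same set of libraries, to see which changes of overload were present after the treatment. The comparison used 6 of the 21 RNA-seq libraries of the study, chosen by their labels. These were the 3 libraries of TAC 8W + Sema 4W and the 3 shams numbered 4 to 6 (Sham 4-6). All mice were wild-type C57BL/6J males, bought at 8 weeks of age. TAC 8W + Sema 4W mice lived for 8 weeks with transverse aortic constriction (TAC), which narrows the aorta and raises the pressure against which the left ventricle pumps, and were injected intraperitoneally with Sema for 4 weeks, starting 4 weeks after surgery. Sham 4-6 mice had the sham operation and vehicle. Overload itself was measured in 6 other libraries, 3 of TAC 8W (8 weeks of constriction with vehicle) and the 3 shams numbered 1 to 3 (Sham 1-3, sham operation with vehicle). The 196 genes higher and 84 genes lower in TAC 8W vs Sham 1-3 are called overload genes below, and the libraries that chose them gave none of the levels in the comparison of TAC 8W + Sema 4W with Sham 4-6, although all 21 libraries shared 1 estimate of the spread. The sources differ on the unit of the daily Sema dose, so no dose is given here.

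A ventricle under raised pressure grows by enlarging its cardiomyocytes. These cells take up again genes that the ventricle uses before birth, such as the natriuretic peptides and the actin of skeletal muscle, while fibroblasts lay down collagens and matricellular proteins and the genes of fatty acid use and of potassium currents go down. Sema is a long-acting agonist of the receptor for glucagon-like peptide, an incretin hormone.

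Total counts were 12933772, 13272843 and 15190608 in TAC 8W + Sema 4W replicates 1 to 3, against 13895408, 17170139 and 15136728 in Sham 4-6 replicates 4 to 6. The share of mitochondrially encoded genes was 43.8 to 54.9% in the 9 libraries of these 2 groups and Sham + Sema 4W, against 20.2 to 40.8% in the other 12. That shams 4 to 6 belong with the 4-week groups follows from the running numbers of their titles and is stated by no label. No TAC 8W library without Sema lies in the 9-library set, so Sema and the set of libraries cannot be told apart where a change of TAC 8W was absent after late treatment. Replicates 1 and 2 of TAC 8W + Sema 4W correlated at a Pearson r of 0.980 over log2 CPM, as did shams 1 and 2. Correlations used genes not encoded by mitochondria that averaged at least 1 CPM. The log2 ratio of well-counted genes between replicates 1 and 2 had an SD of 0.117. Counts of these replicates were the closest of any 2 libraries of a group, although they differed by more than counting noise (chi-square per degree of freedom 6.5, against 12.4 in the next closest pair). Replicates 1 and 2 correlated at 0.942 with sham 4 and at 0.914 to 0.921 with shams 5 and 6. Replicate 3 stood apart from replicates 1 and 2. It correlated at 0.879 and 0.878 with replicates 1 and 2 but at 0.931 with shams 5 and 6 and 0.868 with sham 4, and its gene levels rose with gene length (Spearman rho 0.496 across genes, against -0.156 and -0.147 in replicates 1 and 2 and -0.225 to 0.226 in Sham 4-6). The sources do not say whether each library came from a separate mouse, so the p-values measure the spread between libraries. The main results are given below also without replicate 3. With replicates 1 and 2 summed into 1 library, 17 of the 43 genes described below as called in TAC 8W + Sema 4W vs Sham 4-6 were called again, namely Acta1, Ankrd1, Ankrd2, Ccn1, Fkbp5, Flnc, Gdf15, Insr, Lcn2, Mt2, Myc, Nppb, Rcan1, Syt12, Timp1, Tnfrsf12a and Xirp1, and the other 26 were not (edgeR adjusted p = 0.054 to 0.166). The labels name cardiomyocytes as the cell type and the design names left ventricular tissue. The 10 cardiomyocyte markers summed to 72310 to 93330 CPM in TAC 8W + Sema 4W and 70240 to 92970 CPM in Sham 4-6, and markers of fibroblasts (700.4 to 1315 CPM, against 1792 to 2715 CPM) and endothelial cells (799 to 1510 CPM, against 1010 to 1686 CPM) were counted in every library, as in tissue.

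After late Sema most overload genes of the hypertrophy list were called higher, and 0 of the overload collagens were. In the direct test of the difference from TAC 8W vs Sham 1-3, described below, 0 genes of either list passed. In TAC 8W + Sema 4W, 164 genes were higher (1.30% of the 12626 tested) and 90 were lower (0.713%) than in Sham 4-6, at an adjusted p under 0.05 in edgeR's quasi-likelihood test. Of the 196 genes higher with overload (1.55% of those tested), 51 were called higher in TAC 8W + Sema 4W (26.0%) and 0 lower. The median log2 fold change of the 196 was 0.91 in TAC 8W + Sema 4W vs Sham 4-6, against 2.18 in the comparison that chose them, and 0.0397 over all genes tested in TAC 8W + Sema 4W vs Sham 4-6. Of the 84 genes lower with overload (0.665%), 15 were called lower (17.9%) and 0 higher, with a median of -0.96 against -1.87 in the comparison that chose them. The direction of overload was kept by 158 of the 196 (80.6%, against 53.0% of all genes above 0) and by 77 of the 84 (91.7%, against 47.0% of all genes below 0). The change was smaller than in TAC 8W vs Sham 1-3 for 167 of the 196 and for 80 of the 84. Since the values of TAC 8W vs Sham 1-3 chose these genes, a smaller change in other libraries is no measure of what Sema did.

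**Figure D1:**
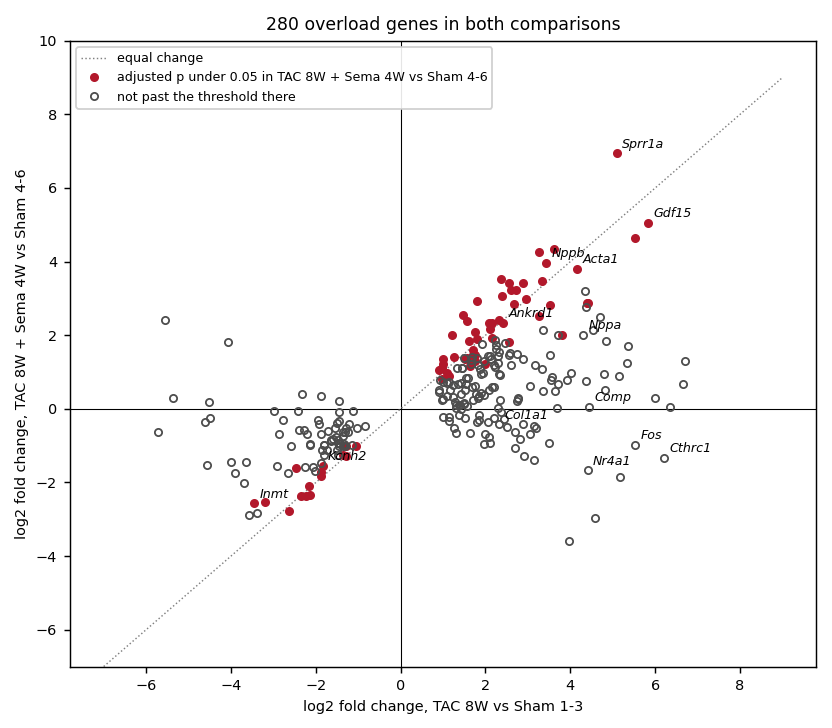
Each point is 1 of 280 overload genes, with its log2 fold change in TAC 8W vs Sham 1-3 on the x axis (the values that chose the genes) and in TAC 8W + Sema 4W vs Sham 4-6 on the y axis. The dotted line marks equal change, filled points passed an adjusted p under 0.05 on the y axis, and Acta1 and Ankrd1 lie near the line while Comp, Col1a1 and Nr4a1 lie far below it.

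Without TAC 8W + Sema 4W replicate 3, whole-table calls grew to 458 higher (3.57%) and 432 lower (3.37% of 12817 tested), and the same overload genes gave 73 called higher (37.2%) and 28 called lower (33.3%), with medians of 0.878 and -1.06. With replicates 1 and 2 summed, 26 overload genes were called higher and 1 lower. Replicate by replicate, the median of the 196 genes over the mean of Sham 4-6 was 0.926 and 0.865 in replicates 1 and 2 and 0.256 in replicate 3, and that of the 84 was -0.989, -0.888 and -0.712. Replicate 3 thus showed less of the rises and nearly as much of the falls. It lay above every sham for 48.0% of the 196, where 37.4% of all genes did so, while replicates 1 and 2 did so for 69.4% and 73.5%, against 31.7% and 31.1% of all genes. All 3 replicates lay above every sham for 85 of the 196 (43.4%, against 9.12% of all genes) and below every sham for 49 of the 84 (58.3%, against 10.9%). Replicates 1 and 2 alone were above every sham for 43 of the 196 and replicate 3 alone for 3. When each of the 6 libraries was left out in turn, 22 of the 51 and 1 of the 15 genes were called in each of the 6 fits, and 17 of the 51 and 4 of the 15 were called in only 1 of them, the fit without replicate 3.

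**Figure D2:**
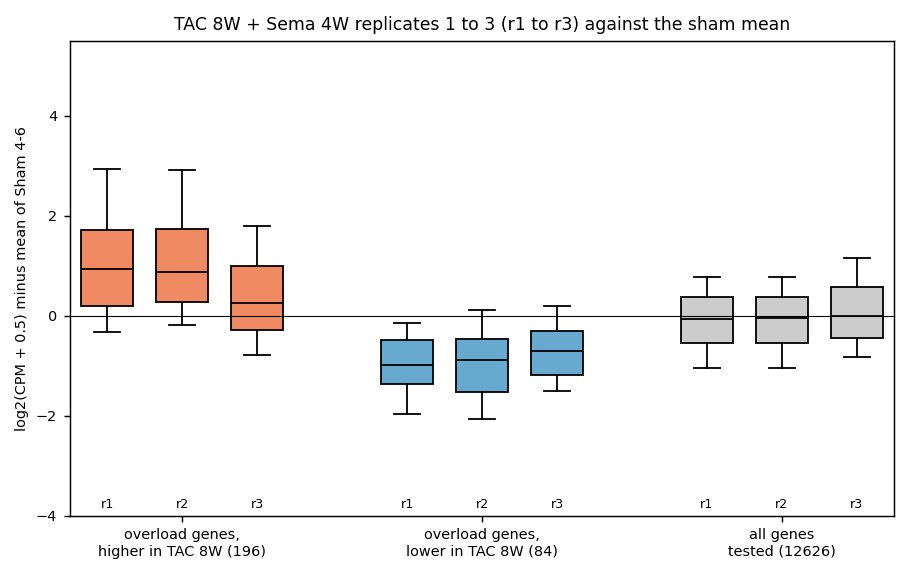
Boxes show log2(CPM + 0.5) of each TAC 8W + Sema 4W library minus the mean of Sham 4-6, for the 196 genes higher with overload, the 84 lower and all 12626 genes tested. Lines in the boxes are medians, box ends are quartiles and whiskers reach the 10th and 90th percentiles, and the median of the 196 genes is lowest in replicate 3 (0.256).

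The genes of cardiomyocyte hypertrophy were mostly called higher. Of 13 tested genes of the list of hypertrophy and fetal genes, 11 were overload genes, and 8 of these were called higher in TAC 8W + Sema 4W, with a median log2 fold change of 2.98 over the 11, against 3.43 in TAC 8W vs Sham 1-3. Counting the 2 others, 9 of 13 were called higher and 0 lower (11 and 0 without replicate 3, 6 and 0 with replicates 1 and 2 summed). Over all genes, 1.30% were called higher with replicate 3 and 3.57% without it. The summed level of the list was 21650, 21800 and 9593 CPM in TAC 8W + Sema 4W, against 2872, 2936 and 1721 CPM in Sham 4-6. Values in CPM are counts per 1e6 of the library size after scaling by the trimmed mean of M values (TMM). Acta1, the alpha-actin of skeletal muscle that the stressed ventricle takes up again, had 8048, 8265 and 4503 CPM in TAC 8W + Sema 4W, against 851, 419 and 216 CPM in Sham 4-6. Every treated library lay above every sham, and the log2 fold change was 3.81 (SE 0.51, edgeR adjusted p = 0.00067), beside 4.15 in TAC 8W vs Sham 1-3. Ankrd1, an ankyrin repeat protein of the sarcomere and nucleus that responds to stretch, had 2402, 2339 and 1894 CPM, against 421, 446 and 447 CPM. Here replicate 3 came close to replicates 1 and 2 (log2 fold change 2.34, SE 0.31, edgeR adjusted p = 0.00067, beside 2.42 with overload).

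Acta1 lies on the minus strand of chromosome 8 (chr8:123891769-123894751 in mm10, GENCODE M21). Its promoter is shown because it held, within 250 bases before the RefSeq start, both a CArG box, the motif of serum response factor, and an M-CAT motif (CATTCC), the motif of TEAD factors, each searched on both strands. Capitals mark the CArG box and then the M-CAT motif in the window chr8:123894776-123895025 (RefSeq, GRCm38.p6), written 5′ to 3′ on the minus strand.
Acta1 promoter: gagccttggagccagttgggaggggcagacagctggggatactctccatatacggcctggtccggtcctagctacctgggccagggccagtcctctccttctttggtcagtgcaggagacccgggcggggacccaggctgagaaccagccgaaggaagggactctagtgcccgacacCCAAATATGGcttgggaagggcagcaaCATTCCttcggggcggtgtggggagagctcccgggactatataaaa
A CArG box was found in 1.47% and an M-CAT motif in 12.6% of the 32851 RefSeq promoter windows of this length. M-CAT motifs were also found before Ankrd1 (2 matches) and Nppb (1 match), both without a CArG box. Neither motif was found in the window of Nppa or in that of Xirp2, another overload gene of the list. A match is a string of letters and was not tested for binding.

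The hormones and stress proteins of the list differed in how far replicate 3 followed. Nppb, the B-type natriuretic peptide, had 3568, 3665 and 574 CPM in TAC 8W + Sema 4W, against 288, 116 and 95.9 CPM in Sham 4-6 (log2 fold change 3.97, SE 0.64, edgeR adjusted p = 0.00265, beside 3.43 with overload). Gdf15, a secreted stress cytokine, had 55.7, 55.7 and 4.29 CPM, against 0.99, 1.11 and 1.32 CPM (5.05, SE 0.87, edgeR adjusted p = 0.00462). Both were above every sham in replicate 3, at a small part of the level in replicates 1 and 2. Rcan1, an inhibitor of calcineurin that calcineurin itself induces, had 146, 142 and 62.7 CPM, against 6.84, 15 and 15.6 CPM (3.22, SE 0.52, edgeR adjusted p = 0.00295). Nmrk2, a nicotinamide riboside kinase of muscle, had 175, 172 and 9.36 CPM, against 3.33, 8.68 and 5.43 CPM (4.34, edgeR adjusted p = 0.0198, and 0.0667 to 0.112 without any 1 library other than replicate 3). Acta1, Ankrd1, Nppb, Gdf15 and Rcan1 were called with replicates 1 and 2 summed and without each of the 6 libraries, and the call of Nmrk2 was lost with the sum (edgeR adjusted p = 0.0691).

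Nppa and Myh7, classic overload genes, were not called. Nppa, the atrial natriuretic peptide, had 2758, 2707 and 305 CPM in TAC 8W + Sema 4W, against 367, 933 and 132 CPM in Sham 4-6. Replicate 3 lay inside the range of the shams (log2 fold change 2.01, SE 0.79, edgeR adjusted p = 0.209, beside 4.30 with overload), and without replicate 3 the change was called (2.48, edgeR adjusted p = 0.040). Sham 5, the highest sham for Nppa, also had 288 CPM of Myl7, an atrial myosin light chain, where the other 2 shams had 8.19 and 10 CPM and TAC 8W + Sema 4W had 0.109, 0 and 0.325 CPM. The 7 atrial markers tested, Nppa among them, summed to 326 to 2788 CPM in TAC 8W + Sema 4W and 187.5 to 1666 CPM in Sham 4-6, and the part of atrial tissue in the level of Nppa was not tested. Myh7, the slow beta-myosin heavy chain, had 789, 740 and 530 CPM, against 557, 487 and 423 CPM. The log2 fold change was 0.49 (SE 0.42, edgeR adjusted p = 0.65), and the value with overload was 3.35, where Myh7 had 3176, 2653 and 672 CPM in TAC 8W and 284, 204 and 148 CPM in Sham 1-3. Myh6, the fast alpha-myosin heavy chain of the adult mouse ventricle, gave 0.06 (SE 0.33, edgeR adjusted p = 0.957).

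**Figure D3:**
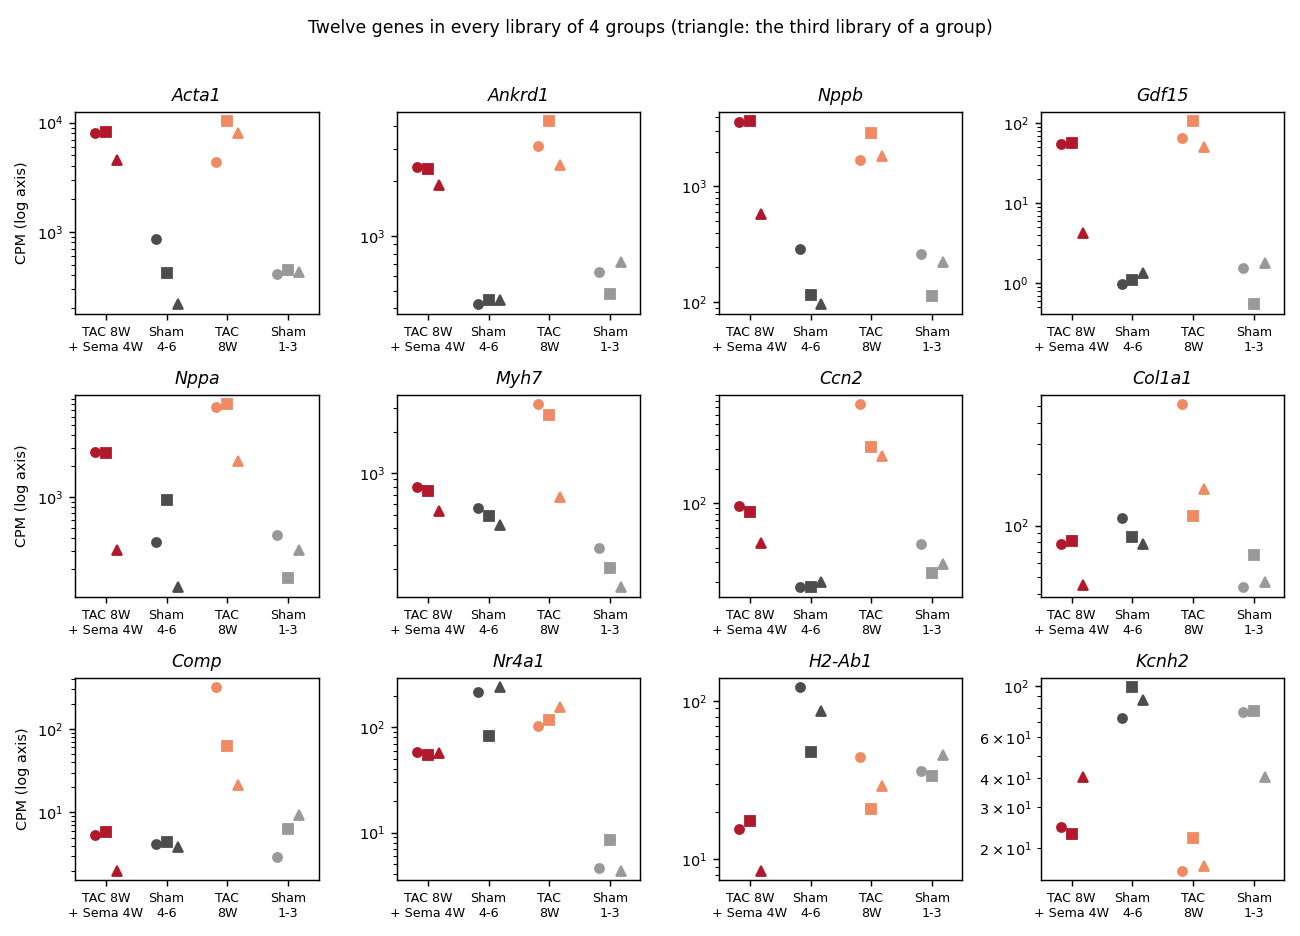
Each panel shows 1 gene, with CPM on a log axis and 1 point for each library of TAC 8W + Sema 4W, Sham 4-6, TAC 8W and Sham 1-3. Triangles mark the third library of a group. Acta1 and Ankrd1 are above every sham in all 3 TAC 8W + Sema 4W libraries, whereas Comp and Col1a1 overlap with Sham 4-6 and Nr4a1 lies below it.

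Genes of the Z-disc and of stretch sensing were raised beyond the overload genes among them. Of 24 tested, 8 were called higher and 0 lower in TAC 8W + Sema 4W, where 1.30% of all genes were called higher, with a median of 1.12. All 3 replicates lay above every sham for 16 of the 24, against 9.12% of all genes. In TAC 8W vs Sham 1-3, 5 were called higher, with a median of 0.75, and 4 of these 5 were among the 8. Flnc, filamin C, which crosslinks actin at the Z-disc, had 1631, 1614 and 520 CPM, against 207, 229 and 206 CPM (2.55, SE 0.35, edgeR adjusted p = 0.000711, beside 1.47 with overload). Xirp1, a repeat protein that binds actin filaments at the intercalated disc, had 238, 260 and 127 CPM, against 35.6, 55.3 and 47.1 CPM (2.18, SE 0.36, edgeR adjusted p = 0.00361, beside 2.10 with overload). In both genes the 3 replicates cleared the shams by a wide margin. Ankrd2, a relative of Ankrd1 known mainly from skeletal muscle, had 194 and 202 CPM in replicates 1 and 2 but 1.88 CPM in replicate 3, against 1.35, 0.0652 and 0.265 CPM (8.00, SE 1.27, edgeR adjusted p = 0.00246). With overload it gave 2.04 (edgeR adjusted p = 0.498). Of 16 contractile proteins of the sarcomere, 0 were called by edgeR in TAC 8W + Sema 4W, with a median of 0.16.

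The collagens of the overload response were absent from the calls. Of 22 collagens tested, 10 were overload genes, and 0 of these 10 were called in TAC 8W + Sema 4W by edgeR, with or without replicate 3. Of all 196 overload genes, 26.0% were called higher with replicate 3 and 37.2% without it. The median of the 10 collagens was -0.37, against 2.42 in TAC 8W vs Sham 1-3, 0 of the 10 lay above every sham in all 3 replicates, and 3 did so in replicates 1 and 2 only. Summed over the 22, collagens had 1161, 1209 and 765.7 CPM in TAC 8W + Sema 4W, against 1100, 982.7 and 1081 CPM in Sham 4-6. The sums in TAC 8W were 4767, 1217 and 2258 CPM, against 722.5, 982.6 and 851.5 CPM in Sham 1-3. Replicate 1 of TAC 8W was thus by far the highest of these libraries, and TAC 8W replicate 2 lay at the level of replicates 1 and 2 of TAC 8W + Sema 4W. Col1a1, the main chain of type I collagen, had 77.9, 81.7 and 44.9 CPM in TAC 8W + Sema 4W, against 110, 85.6 and 78.2 CPM in Sham 4-6 (-0.42, SE 0.42, edgeR adjusted p = 0.707, beside 2.33 with overload). Col3a1, the fibrillar collagen of compliant tissue, gave -0.31 (SE 0.44, edgeR adjusted p = 0.813). Col12a1, which decorates collagen fibrils, had 0.979, 0.412 and 1.23 CPM, against 0.54, 0.783 and 0.53 CPM, where TAC 8W had 55, 6.47 and 2.37 CPM and Sham 1-3 had 0.377, 0.906 and 0.986 CPM.

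Secreted matricellular proteins of the overload response were called at a share near that of all 196 overload genes (26.0% called higher, median 0.91). Of 15 overload genes among the 38 matricellular and matrix glycoproteins tested, 3 were called higher, namely Ccn1, Ccn2 and Thbs4, and the median of the 15 was 0.49, against 2.70 with overload. Comp, a cartilage protein also laid down in fibrotic heart, had 5.33, 5.77 and 2.01 CPM in TAC 8W + Sema 4W, against 4.14, 4.37 and 3.91 CPM in Sham 4-6. The groups overlapped (0.05, SE 0.77, edgeR adjusted p = 0.987), and with overload Comp gave 4.43, at 315, 62.9 and 21.3 CPM in TAC 8W and 2.95, 6.34 and 9.29 CPM in Sham 1-3. Postn, periostin, the marker of activated fibroblasts, had 57.9, 42.6 and 37.7 CPM, against 27.5, 23.2 and 20.6 CPM. All 3 replicates were above every sham, but the change was not called (0.96, SE 0.78, edgeR adjusted p = 0.631, beside 4.78 with overload). Ccn2, the connective tissue growth factor, which cardiomyocytes also make, had 94.2, 83.4 and 44.4 CPM, against 17.8, 17.7 and 19.7 CPM (2.0, SE 0.39, edgeR adjusted p = 0.0116, and 0.0518 to 0.0615 without any 1 library other than replicate 3). Its relative Ccn1 gave 1.81 (SE 0.34, edgeR adjusted p = 0.00853, and 0.0558, 0.0584 and 0.0518 without sham 5, sham 6 or replicate 2). Thbs4, a thrombospondin of stressed muscle and tendon, had 73.6, 69.4 and 7.86 CPM, against 8.19, 6.65 and 5.76 CPM (2.87, edgeR adjusted p = 0.0290, and 0.0918 to 0.135 without any 1 library other than replicate 3).

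Of 11 overload genes among 20 genes of activated fibroblasts, 2 were called higher, Thbs4 and Tnfrsf12a, with a median of 0.49, against 4.41 with overload. The share called higher was again near the 26.0% of all 196 overload genes. Tnfrsf12a, the receptor of the cytokine TWEAK, had 267, 277 and 63.9 CPM, against 28.4, 19.2 and 17.3 CPM, above every sham in each library (3.23, SE 0.48, edgeR adjusted p = 0.00128). Cthrc1, a secreted protein of matrix-producing fibroblasts, had 0.109, 0.515 and 0.065 CPM, against 1.35, 0.326 and 0.0662 CPM (-1.32, edgeR adjusted p = 0.739, beside 6.21 with overload). Ltbp2, which binds fibrillin fibres, gave 1.85 (SE 0.81, edgeR adjusted p = 0.272, beside 4.83 with overload), with every replicate above every sham. Among 7 overload genes of collagen processing 0 were called by edgeR, with a median of 0.39 against 1.69 with overload. The 10 fibroblast markers had a median of -0.83 in TAC 8W + Sema 4W. Gsn and Dpt were called lower (edgeR adjusted p = 0.0142 and 0.0197, both lost without sham 4, replicate 1 or replicate 2, at up to 0.0987). Without replicate 3 the markers were mixed, with 3 called lower and 2 called higher and a median of -0.64. In that fit 3.37% of all genes were called lower and 3.57% higher. The sum of the 10 markers was 1284, 1315 and 700.4 CPM, against 2715, 2071 and 1792 CPM, without overlap. Its part in the level of the matrix genes was not tested. Fewer fibroblasts and less RNA per fibroblast cannot be told apart in tissue.

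**Figure D4:**
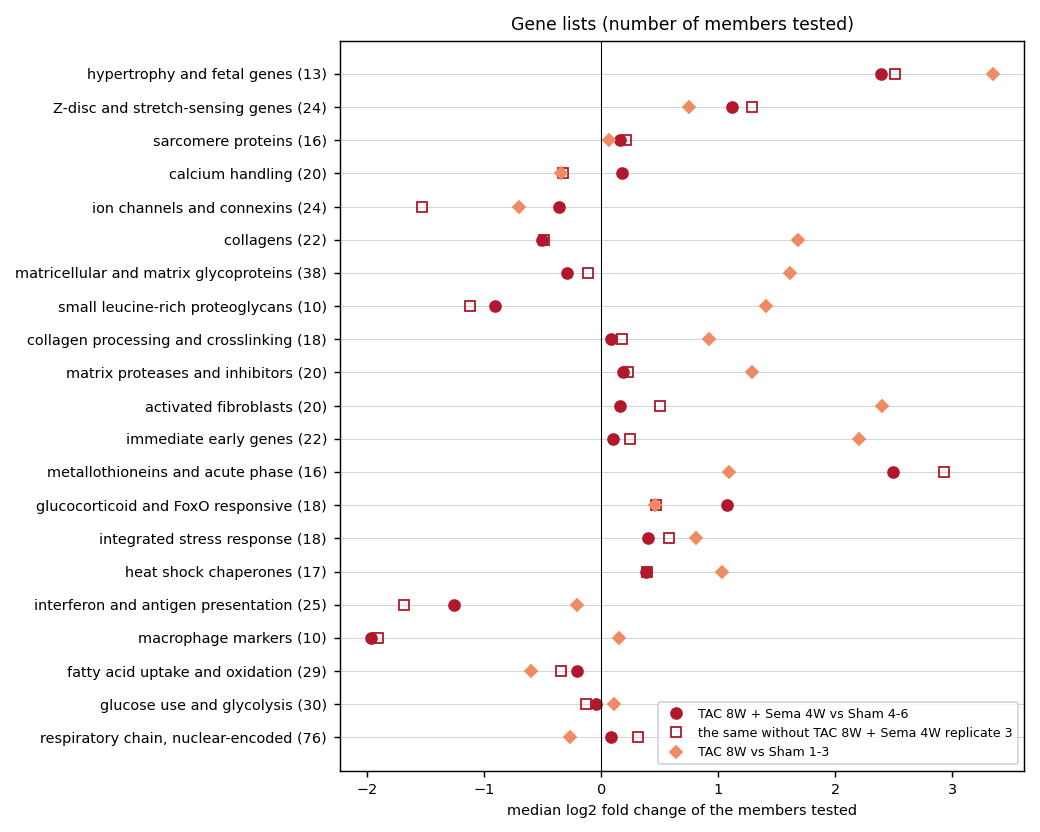
Median log2 fold change of the tested members of each gene list in TAC 8W + Sema 4W vs Sham 4-6 (filled circles), in the same comparison without TAC 8W + Sema 4W replicate 3 (open squares) and in TAC 8W vs Sham 1-3 (diamonds). Hypertrophy genes have a median of 2.39 after late Sema and 3.35 with overload, while collagens have -0.51 and 1.68.

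Immediate early genes had a raised reference in Sham 4-6. Summed over the 22 tested, they had 759.7, 346.9 and 708.6 CPM there, against 193.6, 201.9 and 196.7 CPM in Sham 1-3. The sums were 566.9, 578.2 and 307.2 CPM in TAC 8W + Sema 4W and 715.3, 786.4 and 779.8 CPM in TAC 8W. Of all 196 overload genes, 26.0% were called higher. Of 12 overload genes among 22 immediate early genes, 1 was called higher, Myc, and the median of the 12 was 0.41, against 3.78 with overload. Myc, a growth-promoting transcription factor, had 43, 45.1 and 3.51 CPM in TAC 8W + Sema 4W, against 3.87, 2.74 and 1.99 CPM in Sham 4-6. Replicate 3 lay within the shams (3.41, SE 0.60, edgeR adjusted p = 0.00516). Fos, a subunit of AP-1, had 7.07, 10.3 and 0.715 CPM, against 13.1, 3.26 and 18.9 CPM, and in the other comparison 28.4, 27.8 and 19.3 CPM in TAC 8W, against 0.314, 0.785 and 0.493 CPM in Sham 1-3. Both groups of the 4-week set thus spread widely, and sham 4 and sham 6 approached the levels of TAC 8W (-0.98, SE 0.82, edgeR adjusted p = 0.644, beside 5.53 with overload). Nr4a1, an orphan nuclear receptor that the study placed downstream of Creb5, had 58.4, 54.3 and 56.4 CPM, against 217, 81.7 and 240 CPM. All replicates lay below every sham without a call (-1.67, SE 0.62, edgeR adjusted p = 0.184). TAC 8W had 103, 116 and 154 CPM of it, against 4.65, 8.46 and 4.36 CPM in Sham 1-3 (4.41, SE 0.71, edgeR adjusted p = 0.00213). Sham 4-6 thus lay far above Sham 1-3, at the level of TAC 8W. Creb5 was at most 2.18 CPM in the 6 libraries and gave 0.92 (SE 0.64, edgeR adjusted p = 0.549). Atf3, a stress-induced repressor, had 23.2, 22.5 and 14.6 CPM, against 11.6, 2.54 and 11.5 CPM (1.24, edgeR adjusted p = 0.485, beside 5.34 with overload).

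Of 6 overload genes among 17 heat shock chaperones, 0 were called by edgeR in TAC 8W + Sema 4W and 1 without replicate 3, with a median of 1.00, against 2.06 with overload. These 6 genes are few to set beside the 26.0% of all 196 overload genes called higher (37.2% without replicate 3). Hspa1a, the inducible HSP70, had 39.4, 38.8 and 4.22 CPM, against 25.9, 0.848 and 6.82 CPM, and the groups overlapped (1.30, SE 1.08, edgeR adjusted p = 0.638). Hspb1, the small heat shock protein HSP27 and no overload gene, had 2334, 2313 and 198 CPM, against 365, 172 and 194 CPM (2.73, SE 0.56, edgeR adjusted p = 0.0142). Replicate 3 lay within the shams, and the call was lost without replicate 1, replicate 2, sham 5 or sham 6 (0.0647 to 0.0914).

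Calls among metabolic genes were single genes of each list, where 1.30% of all genes were called higher and 0.713% lower, so the counts are not low for the lists. Of 29 genes of fatty acid uptake and oxidation, 0 were called higher and 1 was lower in TAC 8W + Sema 4W by edgeR, with a median of -0.21, against -0.60 with overload. The one was Slc27a1, a fatty acid transport protein, at 60.2, 65.6 and 67.2 CPM, against 107, 141 and 139 CPM. Its groups did not overlap and the change was close to that of overload (-1.01, SE 0.26, edgeR adjusted p = 0.0469, beside -1.05), but the call was lost without any 1 library other than replicate 3 (0.0725 to 0.179). Acot1, an acyl-CoA thioesterase that overload lowered by 2.27, gave -0.57 (SE 0.50, edgeR adjusted p = 0.662). Ucp3, a mitochondrial uncoupling protein, had 5.98, 3.5 and 23.3 CPM, against 3.6, 16.7 and 14 CPM, and gave -0.05 beside -2.97 with overload. Of 30 genes of glucose use and glycolysis, 2 were called higher and 0 lower, and these were both overload genes that rose in the list. Pfkp, the platelet form of phosphofructokinase, had 130, 131 and 72.2 CPM, against 46.7, 40.4 and 43 CPM (1.35, SE 0.28, edgeR adjusted p = 0.0142, and 0.0569 to 0.0764 without any 1 library other than replicate 3). Pgam1, a phosphoglycerate mutase, had 47.7, 49.8 and 46.4 CPM, against 21.5, 34.1 and 21.6 CPM (0.89, SE 0.23, edgeR adjusted p = 0.0474, and 0.139 to 0.213 without sham 4, sham 6, replicate 1 or replicate 2 of the 6 libraries compared). Pfkfb1, which makes the activator of phosphofructokinase, gave -1.46 (edgeR adjusted p = 0.117, beside -3.99 with overload).

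Several genes of substrate use and mitochondrial form split TAC 8W + Sema 4W in a way that no group mean shows. Hk2, a hexokinase, had 11.2, 11.8 and 145 CPM, against 10.9, 46.4 and 50.3 CPM in Sham 4-6. Pdha1, a subunit of pyruvate dehydrogenase, had 96.1, 101 and 483 CPM, against 83.4, 249 and 248 CPM. Mfn2, which fuses mitochondria, had 45.4, 51.8 and 349 CPM, against 54.8, 183 and 196 CPM. In all 3 genes replicate 3 was the highest of the 6 libraries, replicates 1 and 2 lay near sham 4, and shams 5 and 6 stood between, with log2 fold changes of 0.65, 0.23 and 0.04 (edgeR adjusted p = 0.756, 0.897 and 0.987) that turned to -1.69, -1.02 and -1.62 without replicate 3, again not called. Dnm1l, which divides mitochondria, and Atp2a2, the calcium pump of the sarcoplasmic reticulum, were likewise highest in replicate 3, at 61.9 and 8811 CPM, against at most 27.6 and 7677 CPM in Sham 4-6. The same library was the one whose levels rose with gene length, and the part of length in this split was not tested. Pdk4, which inhibits pyruvate dehydrogenase, had 40.6, 43.5 and 246 CPM, against 6.75, 34.2 and 31.4 CPM, above every sham but not called (2.19, SE 0.72, edgeR adjusted p = 0.121). Idh2 and Cd36 gave 0.09 and 0.24 and were not called. Of the 76 nuclear genes of the respiratory chain, 18 of the citric acid cycle and 46 of the mitochondrial ribosome, 0 were called by edgeR with or without replicate 3, with medians of 0.09, -0.20 and 0.10. Over all genes, 1.30% were called higher and 0.713% lower, and 3.57% and 3.37% without replicate 3.

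Among the genes lower with overload, those called lower again included Kcnh2, Inmt, Penk, Efemp1, Enpp2 and Fgf16. Kcnh2, the ERG channel of the rapid delayed rectifier potassium current, had 24.7, 23.2 and 40.6 CPM in TAC 8W + Sema 4W, against 72.9, 98.5 and 86.9 CPM in Sham 4-6. All treated libraries were below every sham (-1.54, SE 0.28, edgeR adjusted p = 0.00694, beside -1.84 with overload), and the call was lost by a little without replicate 1 or 2 (0.0545 and 0.0576). It was the 1 gene called of 24 ion channels and connexins, whose median was -0.36 with replicate 3 and -1.53 without it. Without replicate 3, 6 of the 24 were called lower, where 3.37% of all genes were. Inmt, a methyltransferase of indole amines, had 2.61, 3.91 and 1.88 CPM, against 22.4, 18.9 and 8.01 CPM (-2.56, SE 0.57, edgeR adjusted p = 0.0206, beside -3.46). Penk, which encodes proenkephalin, had 1.41, 1.96 and 0.78 CPM, against 9.63, 8.22 and 5.69 CPM (-2.53, SE 0.62, edgeR adjusted p = 0.0396, beside -3.19). Both were lower in each treated library than in any sham, while the call of Penk was lost without any 1 of the 6 libraries (0.0576 to 0.135) and that of Inmt without sham 4, sham 5, replicate 1 or replicate 2 (up to 0.0939). Efemp1, an extracellular fibulin, gave -2.77 (SE 0.58, edgeR adjusted p = 0.0158, beside -2.63), Enpp2, the enzyme autotaxin, gave -2.35 (edgeR adjusted p = 0.0152, beside -2.14), and Fgf16, a growth factor of the heart, gave -2.09 (edgeR adjusted p = 0.0268, beside -2.17). Each was lower in every TAC 8W + Sema 4W library than in any sham, and each call was lost without replicate 1, replicate 2 or sham 4. The call of Enpp2 was also lost without sham 5, and that of Fgf16 without sham 5 or sham 6. The highest edgeR adjusted p on leaving out 1 library was 0.0849, 0.0848 and 0.124 for Efemp1, Enpp2 and Fgf16. Dbp, a transcription factor of the clock output, was below every sham without a call (-2.01, edgeR adjusted p = 0.197, beside -3.70 with overload). Slc2a4, the insulin-responsive glucose transporter, and Slc2a1, the basal one, gave -0.40 and 0.70 and were not called. Chrm2, the muscarinic receptor of the heart, had 0.218, 0.309 and 8.9 CPM, against 0.9, 3.13 and 3.77 CPM, the same split as Hk2. Glp1r, the receptor of Sema, had 0 counts in all 6 libraries.

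Most genes called in TAC 8W + Sema 4W vs Sham 4-6 were not called with overload. Of the 164 genes called higher, 51 (31.1%) were overload genes, and of the 90 called lower, 15 (16.7%) were. The medians of all 164 and all 90 in TAC 8W vs Sham 1-3, the overload genes among them included, were 1.08 and -0.663. A gene not called with overload is not thereby shown to differ from it. The 16 genes of the list of metallothioneins and acute phase held 7 called higher and 0 lower (12 and 0 without replicate 3, 3 and 0 with replicates 1 and 2 summed), with a median of 2.49, and 2 called in TAC 8W vs Sham 1-3. Over all genes, 1.30% were called higher with replicate 3 and 3.57% without it. The sum of the list was 3944, 4086 and 451.6 CPM, against 398.8, 347.8 and 300.1 CPM. Lcn2, lipocalin 2, which binds iron carriers of bacteria, had 214, 215 and 2.92 CPM, against 1.35, 2.48 and 0.794 CPM (6.53, SE 1.05, edgeR adjusted p = 0.00265, beside -0.35 with overload). Mt2, a metallothionein, had 1259, 1281 and 50 CPM, against 33.2, 24.1 and 16.1 CPM (5.14, SE 0.86, edgeR adjusted p = 0.0038, beside 1.86 with overload). Timp1, an inhibitor of metalloproteinases, had 293, 299 and 1.88 CPM, against 4.41, 2.74 and 1.52 CPM (6.11, edgeR adjusted p = 0.00853, beside 3.07 with overload, lost without sham 5 or 6, at 0.0525 and 0.064). The rises were mostly those of replicates 1 and 2, and replicate 3 lay within the shams for Timp1 and above them by far less for Lcn2 and Mt2. Syt12, a synaptotagmin, had 47.2, 58.9 and 4.87 CPM, against 1.62, 1.7 and 1.59 CPM (4.49, SE 0.59, edgeR adjusted p = 0.00067, beside 1.28 with overload). Mt2, Timp1 and Syt12 were higher in every TAC 8W library than in any of Sham 1-3, without a call there (edgeR adjusted p = 0.289, 0.149 and 0.308). Fkbp5, a chaperone of steroid receptors that glucocorticoids induce, was one that all 3 replicates shared, with 13.2, 13.6 and 16.6 CPM, against 1.35, 3.33 and 2.71 CPM (2.53, SE 0.45, edgeR adjusted p = 0.00516, beside 1.01 with overload). Of the 18 genes of the insulin-like growth factor axis, 2 were called higher and 0 lower, with a median of 0.40 (2 higher, 2 lower and a median of -0.36 without replicate 3). The shares over all genes were 1.30% higher and 0.713% lower, and 3.57% and 3.37% without replicate 3. Insr, the insulin receptor, had 31.8, 30.1 and 57.2 CPM, against 14, 17 and 16.4 CPM (1.33, SE 0.31, edgeR adjusted p = 0.0284, and 0.0521 to 0.115 without any 1 library other than replicate 2). Igf1r, the receptor of insulin-like growth factor, gave 1.85 (edgeR adjusted p = 0.0142, and 0.0565 to 0.0922 without sham 4, 5 or 6 or replicate 2). With replicates 1 and 2 summed, Lcn2, Mt2, Timp1, Syt12, Fkbp5 and Insr were called and Igf1r was not (edgeR adjusted p = 0.0553).

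Liver proteins were among the genes with the largest rise. Mup3, a major urinary protein made by the liver, had 14.1, 11.2 and 11.4 CPM in TAC 8W + Sema 4W and 0 counts in the shams. This is at least 170-fold higher, taking 3 counts over the 3 shams (0.0722 CPM) as the floor (edgeR adjusted p = 0.0206, and 0.054 to 0.0995 without any 1 library other than replicate 3). Serpina3k, a serine protease inhibitor of liver, had 9.47, 11.6 and 15.7 CPM, against 0, 0.13 and 0.0662 CPM, and Mup20 had 12.9, 17.7 and 9.36 CPM, against 0.36, 0.13 and 0 CPM (edgeR adjusted p = 0.0355 and 0.0198, and up to 0.148 and 0.118 without any 1 library other than replicate 3). A list of 17 liver genes, chosen after these values were seen, summed to 212.7, 249.3 and 222.7 CPM, against 82.45, 43.83 and 31.24 CPM in Sham 4-6, with 4 of the 17 called and 16 above every sham in all 3 replicates (9.12% of all genes). The sum was 122.8, 67.29 and 248.5 CPM in Sham + Sema 4W, 16.54, 7.352 and 14.77 CPM in TAC 8W, and 13.39, 6.707 and 6.823 CPM in Sham 1-3. The 9 libraries of the 4-week set were thus all above the other 6, and their source was not tested. The major urinary proteins are near-identical copies whose counts the authors' assignment of reads could split.

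**Figure D5:**
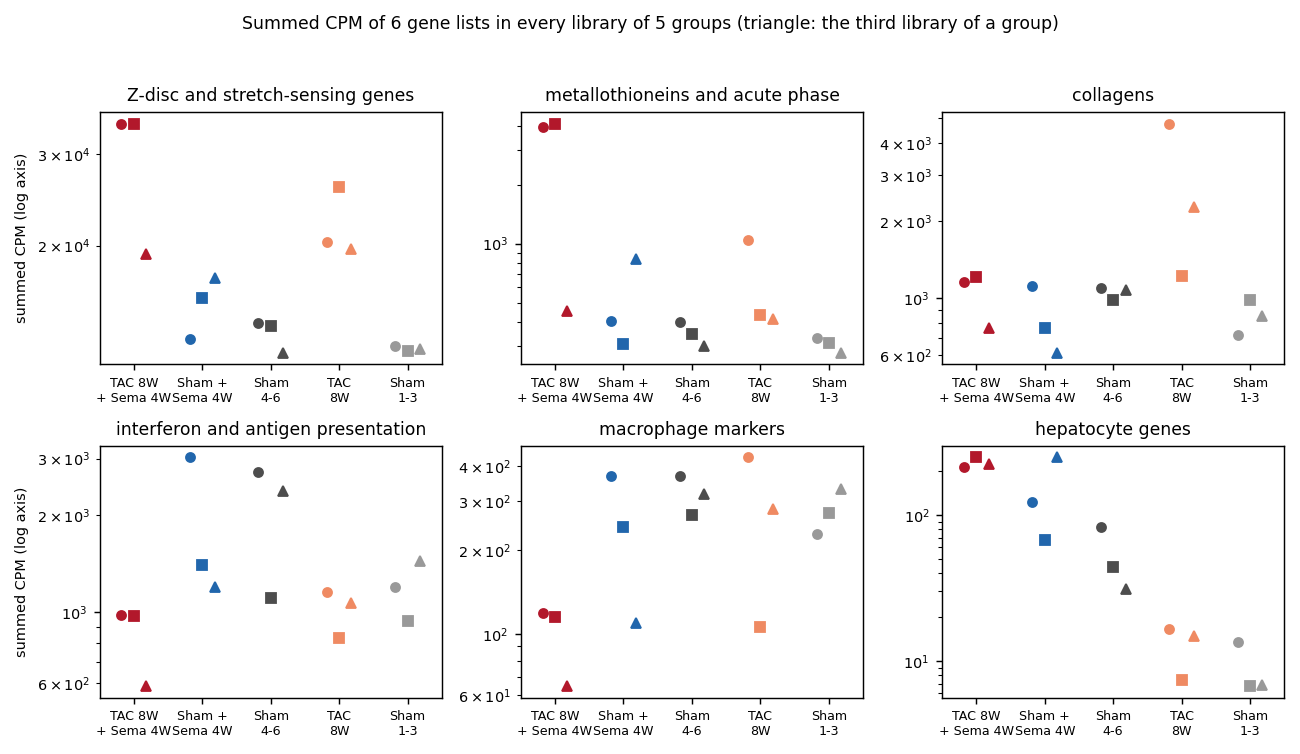
Summed CPM (log axis) of 6 gene lists, with 1 point for each library of TAC 8W + Sema 4W, Sham + Sema 4W, Sham 4-6, TAC 8W and Sham 1-3, and triangles for the third library of a group. Collagen sums of TAC 8W + Sema 4W (765.7 to 1209 CPM) overlap with those of Sham 4-6, macrophage sums (64.77 to 118.4 CPM) do not, and the list of liver genes was chosen after its values were seen.

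The genes lower in TAC 8W + Sema 4W included those of immune cells. Of 25 genes of interferon response and antigen presentation, 9 were called lower and 0 higher, with or without replicate 3. Over all genes, 0.713% were called lower with replicate 3 and 3.37% without it. With replicate 3 the median of the 25 was -1.26, against -0.21 and 0 called by edgeR in TAC 8W vs Sham 1-3. With replicates 1 and 2 summed, 0 of the 25 were called by edgeR, in a fit with 6 genes called lower over the whole table. H2-Ab1, the beta chain of a class II antigen-presenting molecule, had 15.6, 17.5 and 8.51 CPM, against 123, 47.7 and 87.3 CPM (-2.64, SE 0.54, edgeR adjusted p = 0.0142). H2-Eb1, the beta chain of the other class II molecule, had 26.4, 26 and 12.9 CPM, against 133, 54.9 and 105 CPM (-2.17, edgeR adjusted p = 0.0197). Tap1, which carries peptides to class I molecules, gave -1.82, Gbp2 and Gbp3, guanylate-binding proteins induced by interferon, gave -1.78 and -2.02, and the groups of all 3 were apart. All 5 calls were lost without sham 6 and without replicate 2, with a highest edgeR adjusted p of 0.0679 to 0.126 on leaving out 1 library. Those of H2-Ab1 and H2-Eb1 were also lost without sham 4 and without replicate 1. Sham 5 was the lowest sham in the sum of the list, which was 980.4, 972 and 587.7 CPM, against 2728, 1108 and 2373 CPM. The level of shams 4 and 6 was also high beside Sham 1-3 (1194, 936.4 and 1439 CPM) and TAC 8W (1155, 829.9 and 1063 CPM), to which TAC 8W + Sema 4W lay nearer.

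All 10 macrophage markers were lower in every TAC 8W + Sema 4W library than in any sham, where 10.9% of all genes did so, and 1 of the 10 was called. Their sum was 118.4, 114.7 and 64.77 CPM, against 368.4, 266.4 and 317.6 CPM. It was 367.2, 241.9 and 109.7 CPM in Sham + Sema 4W and 430.6, 105.6 and 280 CPM in TAC 8W. The lowest library of each of these groups thus lay within the range of TAC 8W + Sema 4W. C1qc, a chain of complement C1q, had 14.4, 15.9 and 9.03 CPM, against 69.2, 40.9 and 49.1 CPM (-2.02, SE 0.49, edgeR adjusted p = 0.0354, and 0.0641 to 0.117 without any 1 library other than replicate 3). Folr2, a folate receptor of resident macrophages and a gene with 1 of the largest falls, had 1.96, 0.618 and 3.83 CPM, against 19.9, 12 and 12.7 CPM (-2.75, edgeR adjusted p = 0.0355, and 0.0745 to 0.158 without any 1 library other than replicate 3). With overload alone they gave 0.08 and -1.11 and were not called (edgeR adjusted p = 0.985 and 0.517). The markers and the antigen presentation genes were low in the same libraries, and the part of fewer macrophages was not tested.

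The change in TAC 8W + Sema 4W vs Sham 4-6 minus that in TAC 8W vs Sham 1-3 tested directly where the treated and untreated overload responses differed. In edgeR 0 genes were higher and 2 lower (0.0158% of those tested), while 773 had an unadjusted p under 0.05, and DESeq2 called 24 higher and 53 lower. The 2 were Nr4a1 (-6.08, edgeR adjusted p = 0.0142) and Ecm2, an extracellular matrix protein named after its values were seen (-2.25). Without TAC 8W + Sema 4W replicate 3, 22 were higher and 12 lower. Without sham 1, 2, 3, 4 or 6, or without replicate 1 or 2 of TAC 8W + Sema 4W, 0 genes were called. The matrix genes with overload changes above 4 did not pass, with -4.38 for Comp (edgeR adjusted p = 0.19), -4.30 for Col12a1 (0.234) and -3.83 for Postn (0.30), nor did Myh7 (-2.86, 0.0961) and Col1a1 (-2.75, 0.113). For Acta1, Ankrd1, Nppb and Gdf15 the difference was -0.34, -0.09, 0.53 and -0.78, none of them called. A gene called in the one comparison and not in the other, such as Comp, is therefore not shown to differ between them.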

How the data were processed

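RNA-seq counts of left ventricular tissue came from 1 table of 21 libraries. Per the labels and the study's methods, the authors used cutadapt 1.11 for trimming, hisat2 for alignment to mm10 and featureCounts 1.6.0 for gene counts, which were deposited raw. For the annotation and the strand setting the entry is: not given in the sources used here. Overlapping genes are therefore uncertain. All columns were matched to samples and 0 were left over. The letter M in the 4-week columns is explained by no source and was read as the 4-week groups. GENCODE M21 named 22118 of the 22136 gene IDs.

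With edgeR 4.0.16 in R 4.3.3, filterByExpr (minimum count 10, minimum total 15) kept 12626 genes. The 21 libraries were scaled by TMM and fitted together as 7 groups, the shams split by title number, with the quasi-likelihood test (biological coefficient of variation 34.6%). Two-sided p-values were adjusted (Benjamini-Hochberg) across every gene tested, with a threshold of 0.05. SE is the log2 fold change divided by the square root of F. On simulated counts for TAC 8W + Sema 4W vs Sham 4-6 (12400 genes), 6.67% of 2-fold, 63.4% of 4-fold and 85.5% of 8-fold changes were recovered.

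Genes named are the 12 largest rises and falls among called genes that averaged 5 CPM or more and whose groups did not overlap, the 12 largest rises and 8 largest falls among overload genes, up to 5 members of each described list by smallest p, and the genes of the study's main text. Some genes these rules select are not reported here. The members and gene lists were chosen with earlier results of these data known. Alternatives were DESeq2 1.42.0, limma-voom 3.58.1 with and without quality weights, other scalings, filters and sets of libraries, removing trends with length and GC content by splines (5 degrees of freedom), and leaving out each library. Summing TAC 8W + Sema 4W replicates 1 and 2 was added after the data were seen. Promoter windows came from RefSeq.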

Additional observations from a re-analysis of the deposited data

Results flagged for a closer look

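Nr4a1, a nuclear receptor of the immediate early response, and Ecm2, an extracellular matrix protein, differed between the comparison after late Sema and that of overload, by a test of the difference itself. Both calls were lost without sham 1, 2, 3, 4 or 6 and without TAC 8W + Sema 4W replicate 1 or 2. They were also lost with replicates 1 and 2 summed. The change in TAC 8W + Sema 4W vs Sham 4-6 minus that in TAC 8W vs Sham 1-3 was -6.08 on the log2 scale for Nr4a1 and -2.25 for Ecm2. The largest part of the gap in Nr4a1 lay between the shams, with 217, 81.7 and 240 CPM in Sham 4-6 and 4.65, 8.46 and 4.36 CPM in Sham 1-3.

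Among the named genes, another 4 moved in opposite directions in the 2 comparisons in every library, although their tests of the difference did not pass. None of the 4 was called in TAC 8W + Sema 4W vs Sham 4-6 (edgeR adjusted p = 0.0791 to 0.29). In that comparison 10.9% of all genes lay below every sham. The share of all genes that moved in opposite directions was not counted. Fosb, a partner of Jun in AP-1, gave -2.98 in TAC 8W + Sema 4W vs Sham 4-6 (difference -7.55, edgeR adjusted p = 0.0901). Nr4a2, a relative of Nr4a1, gave -3.79 (difference -5.83, edgeR adjusted p = 0.193). Pcolce2, an enhancer of procollagen processing, gave -0.989 (difference -1.60, edgeR adjusted p = 0.392), and Ccnb2, a mitotic cyclin, gave -1.06 (difference -2.40, edgeR adjusted p = 0.23).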

How the results depend on the processing

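The counts of calls depended on how the spread was estimated and on single libraries. For genes higher and lower in TAC 8W + Sema 4W vs Sham 4-6 (164 and 90), DESeq2 gave 401 and 278, limma-voom with quality weights 2168 and 2371, a limma-voom unadjusted p under 0.1 1385 and 1412, all 6 shams 427 and 168, only the 9 libraries of the 4-week set 12 and 1, only the 6 libraries compared 7 and 0 (1562 genes at an unadjusted p under 0.05), replicates 1 and 2 summed 58 and 6, and the sum without replicate 3 173 and 27. Removing trends with length and GC content gave 256 higher. In TAC 8W vs Sham 1-3 (280 called), DESeq2 gave 480 and quality weights 2661. Overload genes redefined in each fit and called in the same direction (66) numbered 148 in DESeq2, 1133 with quality weights, 27 with the sum and 3 with only the 6 libraries compared. For the difference between both comparisons (2 called), the counts were 77 in DESeq2, 1788 with quality weights, 11 without a count filter, 0 with the sum and 9 with the sum without replicate 3. With quality weights Hk2 (-1.675), Pdha1 (-1.084), Mfn2 (-1.671) and Chrm2 (-3.095) turned to below 0.

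Leaving out each library in turn, the counts ranged over 39 (without sham 6) to 458 (without TAC 8W + Sema 4W replicate 3) for genes higher and 6 (without replicate 2) to 432 (without replicate 3) for genes lower. In each fit without sham 4, 5 or 6 or without replicate 1 or 2, at most 58 were higher and 31 lower. The ranges were 75 (without sham 1) to 412 (without replicate 3) in TAC 8W vs Sham 1-3, 26 to 157 for overload genes in the same direction, and 0 to 34 for the difference. Of the 62 named genes called, 60 were also called without replicate 3, 62 in DESeq2, 40 in limma-voom and 21 with replicates 1 and 2 summed, while fits to only the 6 libraries compared kept 4 of 61 and those to the 9 of the 4-week set kept 6 of 61. No paired analysis was possible because TAC 8W + Sema 4W and Sham 4-6 share no replicate number. With a replicate block TAC 8W vs Sham 1-3 gave 291 calls, 185 higher and 106 lower (199 and 114 in the same 6 libraries without it), and the numbers do not pair the libraries (correlations -0.03, -0.142 and -0.0191). On simulated data few 2-fold changes were recovered at this depth and spread, so an uncalled gene is not an unchanged gene.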
